A study of Arabidopsis thaliana with 6 samples.

Results

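The genes described here are 6 Arabidopsis thaliana loci whose proteins shape the thylakoid membrane: RIQ1 (AT5G08050), RIQ2 (AT1G74730), CURT1A (AT4G01150), CURT1B (AT2G46820, also PSI-P and TMP14), CURT1C (AT1G52220) and CURT1D (AT4G38100). They were found by locus in the value table, where all 6 were present among 32627 loci, with 10 of the 37118 transcript models. They were chosen by locus, but with the measured difference between dark and lit roots already known, so that difference is given as a description with no test. The study measured total RNA of whole roots on 6 one-colour NimbleGen arrays, to ask which root transcripts depend on illumination of the root itself. The treated group, root_dark (3 arrays), came from seedlings with roots in darkness and shoots in white light at 75 µmol m-2 s-1. The control group, root_light (3 arrays), had both roots and shoots in that light. Both groups grew for 12 days on diluted MS medium, and each array came from a separate culture plate; the labels name no ecotype, mutant or transgene.

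Thylakoids are the chloroplast membranes that hold the photosystems, and in land plants parts of them are stacked into grana. CURT1 proteins sit at the highly bent margins of grana and induce membrane curvature, and Arabidopsis plants lacking all CURT1 proteins have flat, poorly stacked thylakoids. RIQ1 and RIQ2 are grana proteins named for reduced induction of non-photochemical quenching, the release of excess light energy as heat, and mutants lacking them have altered grana stacking and a changed organisation of light-harvesting complex II (LHCII). Roots growing in soil hold mainly non-green plastids, while roots of Arabidopsis exposed to light can form chloroplasts.

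Values are on the deposited log2 scale, which ran from 4.70 to 15.92 on every array, and each difference is dark minus light, so that a negative one means a lower level in dark-grown roots. Levels of different probes cannot be compared, so genes are set against each other only by their differences. Light replicate 3 stood somewhat apart: the lowest correlation between arrays of a group, 0.9885 across models, involved it, against 0.9807 to 0.9892 between arrays of different groups. Values without it are given below. Of 10 root markers chosen as a tissue check, with earlier results of these data known, none passed the test described below. An unadjusted p under 0.05 in limma was seen in 2, and in 3 (SCR, SHR and COBL9) all dark values lay above all light values. The shares of all models for these counts were not computed, so nothing is read from them. The list mean of the root markers per array was 13.66 to 13.82 in dark-grown and 13.60 to 13.64 in light-grown roots. The list median difference was 0.09, and 2 of the 10 differences were negative. In 4 of the 10 the highest light value lay within 1 of the top of the scale. Whether that limited their differences was not tested. Of 10 shoot and stomata markers, the shoot meristem genes STM (0.84) and KNAT1 (-1.13) were higher and lower in dark-grown roots, and the list mean was 9.91 to 10.14 in dark-grown against 9.92 to 10.00 in light-grown roots. STM was dim in both groups, at 7.34 in dark-grown and 6.49 in light-grown roots, with 23.0% and 13.3% of models lower. STM passed without dark replicate 2 but in no other fit that left out 1 array, and KNAT1 did not pass without any 1 of the dark arrays. The part of carried-over shoot tissue in the results was not tested. In RNA of whole roots, fewer cells that use a gene and less RNA per cell cannot be told apart.

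Both RIQ genes had lower levels in dark-grown roots, RIQ1 by far the more. RIQ1 read 6.46, 7.40 and 7.01 in dark-grown roots, against 11.54, 11.85 and 11.46 in light-grown roots. All dark values lay at least 4.06 below all light values. The means were 6.96 ± 0.47 in dark-grown and 11.62 ± 0.21 in light-grown roots (SD, n = 3 each), a difference of -4.66 (SE 0.26) or 25.3-fold lower in the dark. Only 19.2% of models had a dark mean below that of RIQ1, so its dark level lies in the dim part of the scale and the fold is approximate. By size, this was number 8 among the falls of all 37118 models.

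RIQ2, the close homologue of RIQ1, read 9.53, 9.55 and 9.65 in dark-grown roots, against 10.83, 10.94 and 10.77 in light-grown roots. The groups did not overlap, and arrays within a group differed little. The means were 9.58 ± 0.06 in dark-grown and 10.85 ± 0.09 in light-grown roots (SD, n = 3 each), a difference of -1.27 (SE 0.08) or 2.41-fold lower in the dark. Within groups RIQ2 was more even than most models of its brightness, with a pooled SD of 0.08 where the median model of its signal class (1 of 10 equal classes by mean signal) had 0.29. RIQ1, in the same class, had a pooled SD of 0.36.

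**Figure D1:**
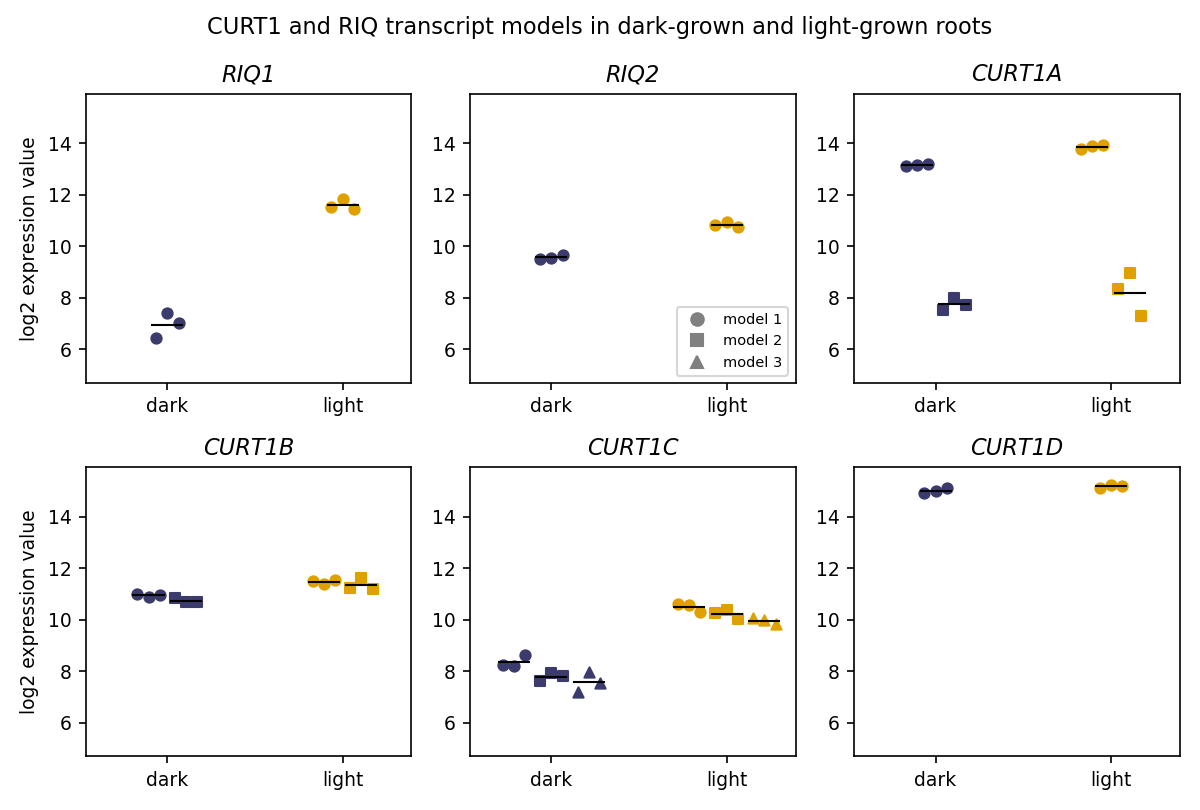
Log2 expression value (y axis, drawn over the whole range of the scale) of each transcript model of the 6 genes in the 3 dark and 3 light arrays; points are arrays in replicate order, bars are group means and marker shapes are transcript models. RIQ1 and CURT1C show the widest separation of dark from light, and CURT1D lies near the top of the scale in both groups.

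Among the CURT1 genes, CURT1C had the largest difference. Its first model, which stands for the gene because it has the highest mean of its 3 models, read 8.24, 8.19 and 8.63 in dark-grown roots, against 10.62, 10.58 and 10.28 in light-grown roots. Every dark value lay below every light value, by at least 1.65. The means were 8.35 ± 0.24 in dark-grown and 10.49 ± 0.19 in light-grown roots (SD, n = 3 each), a difference of -2.14 (SE 0.16) or 4.41-fold lower in the dark. The other models of CURT1C differed by -2.42 (model 2, SE 0.13) and -2.38 (model 3, SE 0.20), also without overlap. Models of one gene may share probes, so they are not separate measurements of it.

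CURT1A, the CURT1 protein most studied for its dose effect on grana, had a small and even difference. Its first model read 13.11, 13.15 and 13.19 in dark-grown roots, against 13.78, 13.91 and 13.93 in light-grown roots. The groups were separated by at least 0.59. The difference was -0.72 (SE 0.08), or 1.65-fold lower in the dark, between means of 13.15 ± 0.04 in dark-grown and 13.87 ± 0.08 in light-grown roots (SD, n = 3 each). The second model of CURT1A gave a different picture, at 7.55, 7.99 and 7.71 in dark-grown roots, against 8.34, 8.97 and 7.30 in light-grown roots. There the groups overlapped through light replicate 3, which was below all dark arrays, and the difference of -0.45 had an SE of 0.42. The second model lay low on the scale, with 26.3% of models lower in dark-grown and 29.3% in light-grown roots. Its pooled SD was 0.62, where the median model of its signal class had 0.40.

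CURT1B, which was first described as a photosystem I subunit and as a thylakoid phosphoprotein, read 10.99, 10.87 and 10.97 in dark-grown roots, against 11.50, 11.37 and 11.56 in light-grown roots. The groups did not overlap. The means were 10.94 ± 0.06 in dark-grown and 11.48 ± 0.10 in light-grown roots (SD, n = 3 each), a difference of -0.53 (SE 0.08) or 1.45-fold lower in the dark. Its second model differed by -0.61 (SE 0.14), with a light SD of 0.25 that came from a high value of 11.63 in light replicate 2.

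CURT1D was nearly level between the groups. It read 14.93, 14.99 and 15.12 in dark-grown roots, against 15.12, 15.23 and 15.20 in light-grown roots. The highest dark array, replicate 3, equalled the lowest light array, replicate 1. The means were 15.01 ± 0.10 in dark-grown and 15.18 ± 0.06 in light-grown roots (SD, n = 3 each), a difference of -0.17 (SE 0.08). Its highest light value was 0.69 below the top of the scale, and whether that limited the difference was not tested.

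All 6 genes, and all 10 of their models, had a lower mean in dark-grown than in light-grown roots. The median of the 6 differences was -0.997, against 0.01 over all 32627 genes. In 5 of the 6 genes all dark values lay below all light values, which held for 12% of all models. Nothing is read from this count, since the genes were proposed with this contrast known.

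The size of the difference set most of the genes apart from each other. In order of size it was RIQ1, CURT1C, RIQ2, CURT1A, CURT1B and CURT1D. Each gene has 9 differences between 1 dark and 1 light array, from -5.39 to -4.06 in RIQ1, -2.43 to -1.65 in CURT1C and -1.41 to -1.12 in RIQ2. They ran from -0.82 to -0.59 in CURT1A, -0.69 to -0.38 in CURT1B and -0.30 to 0 in CURT1D. For the models that stand for the genes, these ranges overlapped between CURT1A and CURT1B alone, whose order is therefore not resolved beyond the spread of the arrays. In the second model of CURT1A the range was -1.42 to 0.69, which overlaps those of RIQ2, CURT1B and CURT1D. The place of CURT1A in the order thus rests on its first model.

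**Figure D2:**
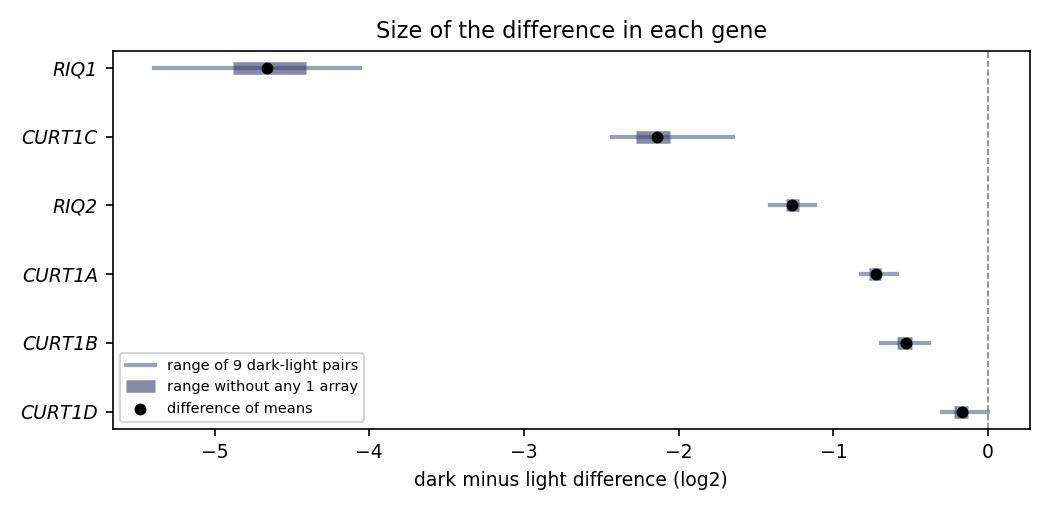
Dark minus light difference (x axis, log2) of each gene; black points are differences of the group means, thin lines span the 9 dark-light pairs of arrays and thick lines span the values obtained without any 1 array. RIQ1 lies between -5.39 and -4.06, apart from all others, and CURT1D reaches 0.

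Leaving out any 1 array kept the sign and the order of all 6 differences. Without light replicate 3 they were -4.74 for RIQ1, -2.25 for CURT1C, -1.31 for RIQ2, -0.70 for CURT1A, -0.49 for CURT1B and -0.16 for CURT1D. RIQ1 depended most on single arrays, with -4.41 without dark replicate 1, its lowest array, and -4.88 without dark replicate 2, its highest dark array.

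Genes that work beside CURT1 and RIQ in the thylakoid were followed as 4 lists, by limma's test over all models with Benjamini-Hochberg adjustment and a threshold of 0.05. Over all models, 3.22% passed as lower and 2.43% as higher in dark-grown roots. The first list held 17 genes of thylakoid structure, membrane lipids and protein insertion. In it 1 fell in dark-grown roots, none rose and 16 did not pass (4 of 17 at an unadjusted p under 0.05 in limma). The later lists had 6 of 15, 7 of 12 and 9 of 18 at that unadjusted level, in the order given below. The share of all models at that level was not computed, so nothing is read from these counts. The gene that fell was CPSRP43, a subunit of the chloroplast signal recognition particle that delivers LHC proteins to the membrane, at 11.63 ± 0.13 in dark-grown and 12.29 ± 0.03 in light-grown roots (SD, n = 3 each; difference -0.66, adjusted p = 0.0159 in limma). FZL, a dynamin-like protein of thylakoid and grana organisation, differed by 0.05 (SE 0.07). VIPP1, which is needed for thylakoid formation and upkeep, differed by -0.04 (SE 0.07). The list median was 0.04, and its members ranged from -0.66 to 0.18. CPSRP43 did not pass without dark replicate 2 or 3 or light replicate 1 or 2.

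The second list was the LHCII antenna with its minor relatives, the pigment proteins that fill the stacked membranes. Of 15 genes 4 fell in dark-grown roots, none rose and 11 did not pass, and the median was -0.44. The minor antenna gene LHCB5 was at 9.34 ± 0.36 in dark-grown and 12.01 ± 0.09 in light-grown roots (SD, n = 3 each; difference -2.67, adjusted p = 0.00228 in limma). LHCB1.5 of the major antenna differed by -2.42 (adjusted p = 0.00205 in limma), LHCB3 by -2.01 (adjusted p = 0.0139) and the minor antenna gene LHCB6 by -1.74 (adjusted p = 0.00248). LHCB1.3 read 9.78, 8.64 and 11.34 in dark-grown roots, against 11.64, 11.20 and 11.64 in light-grown roots, and missed the threshold (limma's adjusted p = 0.256). Its arrays from dark-grown roots spread over more than the difference between the means, and near-identical LHCB1 genes may share signal. LHCB3 did not pass without dark replicate 2 or light replicate 1.

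The third list held 12 genes of thylakoid protein phosphorylation, energy dissipation and proton and electron balance. In it 5 fell in dark-grown roots, none rose and 7 did not pass, with a median of -0.43. PSBS, the photosystem II protein that triggers fast non-photochemical quenching, was at 6.81 ± 0.26 in dark-grown and 11.27 ± 0.08 in light-grown roots (SD, n = 3 each; difference -4.46, adjusted p = 0.000623 in limma). Its dark mean lay in the dim part of the scale, with 17.7% of models lower, so the size is approximate. The thylakoid potassium-proton antiporter gene KEA3 differed by -1.79 (adjusted p = 0.0014 in limma) and PGR5, of cyclic electron flow, by -1.67 (adjusted p = 0.00315). TSP9, a phosphoprotein associated with LHCII, differed by -0.88 (adjusted p = 0.0194 in limma). STN7, the kinase that phosphorylates LHCII in state transitions, fell by 0.66 on the log2 scale (adjusted p = 0.0263 in limma), while its opposing phosphatase TAP38 differed by 0.03 (SE 0.13). For the photosystem II core, the kinase STN8 differed by 0.15 (SE 0.11) and the phosphatase PBCP by -0.32 (SE 0.12), neither past the test. The count was 3 without dark replicate 1, 2 or 3 or light replicate 1, with STN7 and TSP9 not passing in each of these fits. STN7 also did not pass without light replicate 2, where the count was 4.

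The fourth list held 18 regulators of chloroplast development and light signalling. In it 6 fell and 1 rose in dark-grown roots, 11 did not pass, and the median was 0.01. The bZIP factor genes HYH and HY5, which promote light-dependent development, differed by -2.11 (adjusted p = 0.00266 in limma) and -1.07 (adjusted p = 0.00326). SIG6 and SIG5, sigma factors of the plastid RNA polymerase, differed by -0.86 (adjusted p = 0.00361 in limma) and -1.34 (adjusted p = 0.0179). Named outside the rule, after seeing their values, were the other genes to pass: the GATA factor genes GNC (-1.34) and CGA1 (-1.13), which fell, and the phytochrome-interacting factor gene PIF4 (1.64), which rose. GNC and CGA1 were dim in dark-grown roots, with 2.03% and 22.3% of models lower, so their sizes are approximate. GLK1 and GLK2, activators of many photosynthesis genes, did not pass: GLK1 was at 8.92 ± 0.31 in dark-grown and 8.31 ± 0.04 in light-grown roots (SD, n = 3 each; adjusted p = 0.0992 in limma) and GLK2 differed by 0.25 (SE 0.23). The number that fell was 3 without dark replicate 1 or 2 or light replicate 1 or 2, where SIG5, GNC and CGA1 did not pass while HYH, HY5 and SIG6 did. GNC and CGA1 also did not pass without dark replicate 3, where the number was 4. None rose without dark replicate 2 or light replicate 1, and PIF4 also did not pass without dark replicate 1, where PIF5 did.

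**Figure D3:**
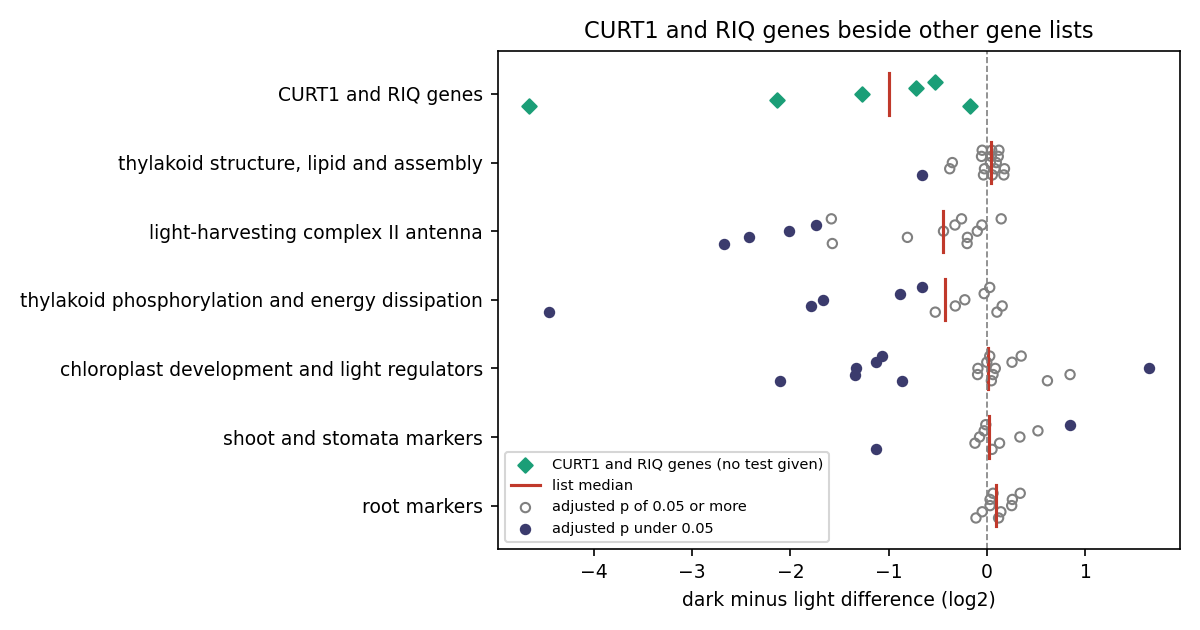
Dark minus light difference (x axis, log2) of the CURT1 and RIQ genes (diamonds) and of the genes of 6 other lists (circles, filled where limma's adjusted p is under 0.05); each point is a gene, red bars are list medians and vertical offsets only separate points. The CURT1 and RIQ median is -0.997, and the thylakoid structure, lipid and assembly list centres on 0.04 with 1 filled point.

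The genes next to the 6 loci on the chromosomes mostly did not pass the test. Of 12 nearest protein-coding neighbours in the RefSeq gene table, 2 did. PSAH2, a photosystem I subunit gene beside CURT1C on chromosome 1, was at 7.27 ± 0.28 in dark-grown and 9.20 ± 0.22 in light-grown roots (SD, n = 3 each), a difference of -1.93 (SE 0.18, adjusted p = 0.00518 in limma). That is close to the -2.14 of CURT1C. The dark mean of PSAH2 lay under 7.61, the 25th percentile of all values, so its size is approximate. CCA1, the morning clock gene beside CURT1B on chromosome 2, was at 10.84 ± 0.23 in dark-grown and 9.58 ± 0.33 in light-grown roots (SD, n = 3 each), a difference of 1.27 (SE 0.20, adjusted p = 0.0261 in limma), opposite in sign to CURT1B. The call of CCA1 was lost without any 1 array other than light replicate 2, and PSAH2 passed in each of those fits. Next to RIQ1, the gene of the mitochondrial import subunit TOM5 differed by -0.41 (SE 0.12) and AT5G08055 by 0.05 (SE 0.36), neither past the test, though TOM5 passed with a trend and robust variance prior (adjusted p = 0.0322 in limma). The neighbours of RIQ2, QKY and CPK30, differed by 0.20 and 0.10, and those of CURT1A, AT4G01140 and LRB3, by 0.26 and 0.09. The remaining neighbours were AT2G46810 beside CURT1B (0.23), AT1G52200 beside CURT1C (-0.05), and AT4G38092 and AT4G38120 beside CURT1D (0.06 and 0.22).

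**Figure D4:**
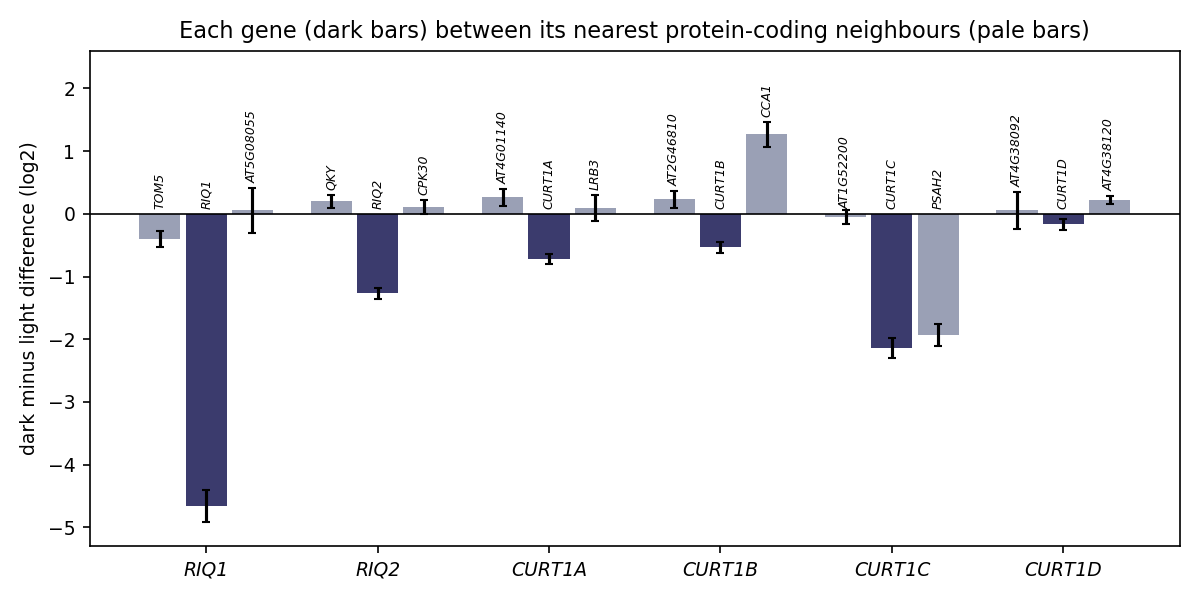
Dark minus light difference (y axis, log2) of each of the 6 genes and of its nearest protein-coding neighbour on either side, with limma's standard error as bars. Of the neighbours, PSAH2 beside CURT1C has a large negative difference (-1.93) and CCA1 beside CURT1B a positive one (1.27).

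For each gene, the 3 other loci with the nearest profile over the 6 arrays were found, by the root mean square (RMS) distance of log2 values centred on each gene's own mean. The 6 arrays fall into the 2 groups, so a near profile is mostly a difference of like size, and the correlations below describe that and carry no test. Likeness of arrays within a group is also favoured by this choice, since the distance was taken over the same arrays. The profile nearest to RIQ1 was PSBS, at an RMS distance of 0.18 (Pearson r = 0.998, 6 arrays). PSBS read 6.54, 7.06 and 6.83 in dark-grown roots, against 11.25, 11.35 and 11.20 in light-grown roots, with its lowest array in dark replicate 1 as in RIQ1. The next were AT2G22590 (0.31) and AT5G17040 (0.34), which were also dim in dark-grown roots, with dark means of 6.60 and 7.45.

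The profile nearest to CURT1C was HYH, at an RMS distance of 0.02 (Pearson r = 0.9999, 6 arrays). HYH read 11.82, 11.77 and 12.22 in dark-grown roots, against 14.19, 14.11 and 13.84 in light-grown roots. In HYH and in model 1 of CURT1C, dark replicate 3 was the highest dark array and light replicate 3 the lowest light array. Models 2 and 3 of CURT1C had their highest dark value in dark replicate 2, at 7.94 and 7.98, so the likeness within the dark group holds for model 1 only. AT4G33660 (0.05) and FADA (also FAD4, 0.14), a desaturase of plastid phosphatidylglycerol, followed.

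RIQ2 was nearest to HPR (0.05), the peroxisomal hydroxypyruvate reductase gene of photorespiration, to the cell wall enzyme gene XTR6 (0.06) and to the auxin-conjugating enzyme gene GH3.3 (0.06). CURT1A was nearest to AT2G34060 (0.03), AT1G52900 (0.04) and the expansin gene EXP3 (0.05). Of these, AT1G52900 was dim in both groups, with means of 5.68 in dark-grown and 6.36 in light-grown roots. CURT1B was nearest to the Nudix hydrolase gene NUDX19 (0.04), AT1G26730 (0.05) and AT5G23350 (0.05). CURT1D was nearest to the Polycomb gene VRN2, AT3G15690 and AT3G57785, at 0.01, 0.01 and 0.02, where small distances go with a small difference between groups. Among the 6 genes themselves the nearest pair was CURT1A and CURT1B (0.13), the farthest pair without RIQ1 was CURT1C and CURT1D (0.997), and RIQ1 was farther than that from each of the others.

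**Figure D5:**
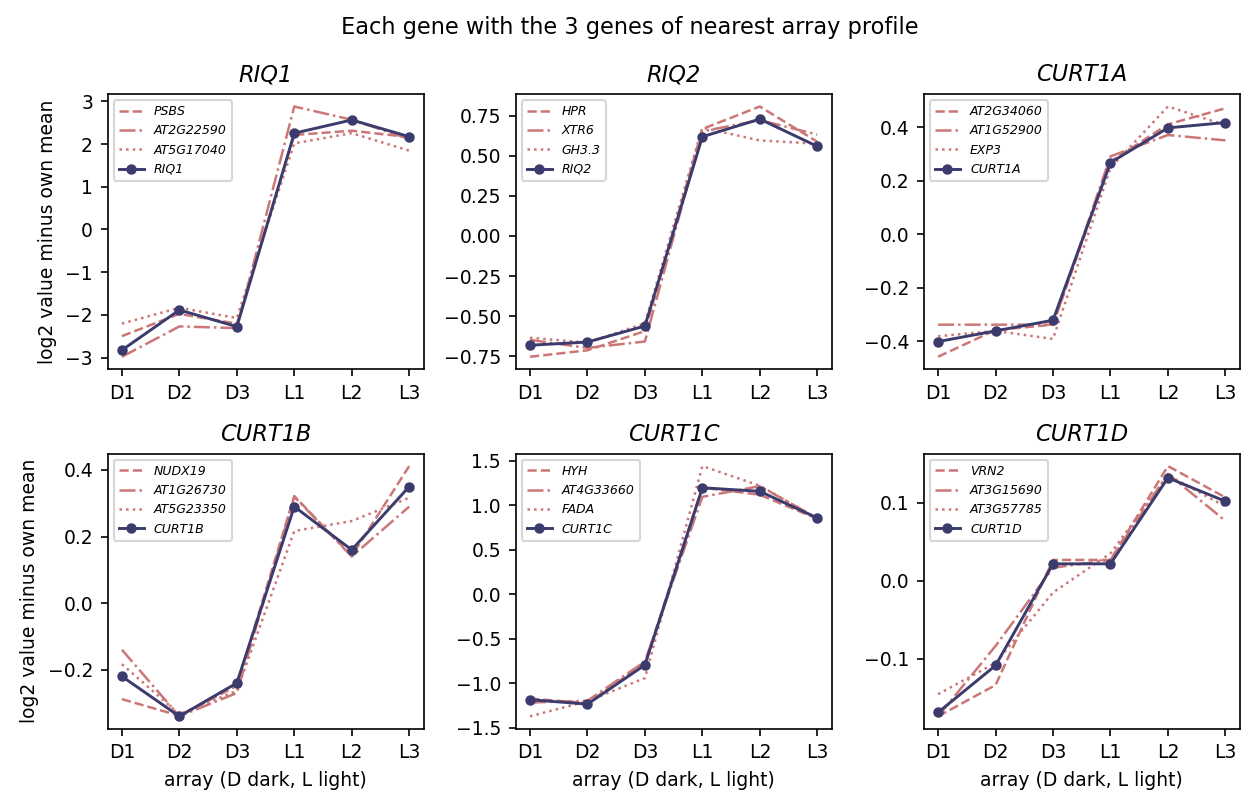
Log2 value minus the gene's own mean over the 6 arrays (y axis, scaled per panel) for each of the 6 genes (solid line with points) and the 3 loci of nearest profile (broken lines); D1 to D3 are the dark and L1 to L3 the light replicates, which have no order. RIQ1 and PSBS, and model 1 of CURT1C and HYH, share the arrays that lie highest and lowest within the groups. The loci were picked for nearness over these same arrays, so nothing is read from that likeness.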

How the data were processed

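The table the authors deposited holds log2 expression values of 37118 transcript models on 6 arrays. Sorted, the values of any array matched those of the others within 0.01, the mark of quantile normalization, and no scaling was added. Per the submitters' processing notes, limma was used (version not given). How background was corrected, how probes were combined into models and which annotation release the array follows is not given in the sources used here. Detection calls are not part of the table.

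The contrast dark minus light was estimated by limma (3.58.1, under R 4.3.3; lmFit, eBayes, two-sided, no covariate), adjusted by Benjamini-Hochberg over all models, threshold 0.05; SEs are limma's. The fit was tested on simulated data. The model with the highest mean over 6 arrays stands for a gene. Array number, 3 per group, limits precision. The members and lists were chosen with earlier results of these data known. Named genes were the 6 members, up to 4 genes per list with the lowest p past the threshold, 12 always included (FZL, VIPP1, STN7, STN8, TAP38, PBCP, PSBS, LHCB1.3, GLK1, GLK2, HY5, HYH), 3 nearest profiles per member and the flanking protein-coding genes. Symbols of the members and list genes were set when the lists were made. Other symbols came from the TAIR10.1 RefSeq table (31993 of 32627 loci found), which was used for names and neighbours only. The names RIQ1 and RIQ2 are not in that table and come from general knowledge of these loci. Same-numbered arrays had residual correlations of 0.01, 0.06 and 0.41, and dark replicate 2 had 0.36 with light replicate 1. The main fit therefore did not use the replicate numbers as pairs. The replicate block took the numbered pairing only, and whether arrays shared variation across the groups in another pairing was not tested. Alternatives were leaving out each array, a replicate block, quantile normalizing again, median centring, averaging a gene's models, a trend and robust variance prior, array weights and a filter at the 25th percentile of signal. Plots were made in matplotlib 3.10.9 under Python 3.11.15. No sequences were used here.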

Additional observations from a re-analysis of the deposited data

How the results depend on the processing

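Quantile normalizing again, median centring, the replicate block and the signal filter returned the same differences for the 6 genes. Those fits therefore say nothing about the sign, and a variance prior does not enter a difference. Without any 1 array, with array weights and with the mean of a gene's models, where values could change, the differences kept their sign. Without any 1 array they ran from -4.88 to -4.41 (RIQ1), -2.28 to -2.06 (CURT1C), -1.31 to -1.22 (RIQ2), -0.77 to -0.70 (CURT1A), -0.59 to -0.49 (CURT1B) and -0.22 to -0.13 (CURT1D). With the mean of a gene's models, CURT1A differed by -0.59, because its second model enters. Models past the threshold, 1196 lower and 903 higher in dark-grown roots, became 668 lower and 290 higher under the replicate block. They became 1852 lower and 1879 higher when the variance prior had a trend and was robust, and 1588 lower and 1627 higher with models under the 25th percentile of signal left out; without any 1 array they ran from 607 to 905 lower and 158 to 473 higher. With the replicate block the thylakoid structure list had 0 lower, the regulators 3 lower, and the shoot markers 0 lower and 0 higher. The phosphorylation and dissipation list had 4 lower under that block. The genes that lost their call under it were CPSRP43, STN7, SIG5, GNC, CGA1, KNAT1, STM and the neighbour CCA1. With the trend and robust prior, and with the signal filter, the structure list had 3 lower (THF1 and CPSRP54 join, chosen after their values were seen), the shoot markers 0 higher and the root markers 1 higher (SCR). STM was the shoot marker that no longer passed, or was removed by the filter. Without any 1 array, lower counts ran from 0 to 1 (structure), 3 to 4 (antenna), 3 to 5 (phosphorylation and dissipation), 3 to 6 (regulators) and 0 to 1 (shoot markers), and higher counts from 0 to 1 for regulators and shoot markers. Of 21 list and neighbour genes past the threshold, 10 passed in all alternatives in which they were tested, and 11 failed in at least 1. The causes were not tested. The number of arrays, 3 a group, limits precision; RIQ1 was dim in the dark and CURT1D was near the top of the scale in both groups.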
